A study of Mus musculus with 12 samples.

Results

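The control proximal colon was described here from the 6 EPR fl/fl libraries, which were chosen by their sample labels out of the 12 libraries of the series. Each library came from 1 mouse aged 12 weeks. In these mice the EPR gene was flanked by loxP sites at its promoter and first exon, and no Cre recombinase was present, so the gene was left in place. The modified allele came from targeted embryonic stem cells. The proximal part of the colon was rinsed and frozen, and RNA of the whole tissue piece was sequenced after depletion of ribosomal RNA. No other group was compared with these libraries, and the text asks which genes, cell types and functions held the counts and which of them differed between the 6 mice. EPR, a long noncoding RNA that also encodes a small peptide, is listed in the count table as Smim31. Its levels in libraries 1 to 6 were 58.4, 48.8, 23.1, 45.2, 21.2 and 42.6 CPM (counts divided by the library total and given per 1e6, scaled between libraries as described below), with the lowest values in libraries 3 and 5.

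The colon wall is lined by an epithelium of 1 cell layer that is renewed from stem cells at the base of the crypts. Absorptive colonocytes take up water, salt and short-chain fatty acids, and goblet cells secrete the mucin Muc2, which forms the mucus gel between bacteria and the epithelium. Below the epithelium lie connective tissue with immune cells and vessels, then smooth muscle with the enteric nervous system, and a mesothelial coat with fat attached to it. In bulk tissue such as this, fewer cells of a type and less RNA per cell cannot be told apart.

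Depth ranged from 13093904 to 30727736 counts per library, and 3 counts, the limit used for a gene that is not detected, corresponded to 0.0976 to 0.229 CPM. The table lists 55376 genes, of which 33611 had a count in at least 1 library, and 15322 reached 1 CPM in at least 4 of the 6 libraries and are called tested genes below. Of these, 13344 were protein-coding. Libraries were compared on CPM scaled by the trimmed mean of M values (TMM), and genes were compared with each other as CPM divided by the length of the gene model in kilobases (CPM per kb). Values listed for libraries 1 to 6 are TMM-scaled CPM unless another scale is named, and means ± SD are plain CPM. Library 1 stood apart in Gm42418, which took 7.63% of its counts, and in further genes described below. It had the lowest TMM factor, 0.87 against up to 1.07. Where the place of library 1 in a list depended on the scaling, the count with totals alone is given as well. Library 6 stood apart in interferon-response genes, as described below. No pair of libraries was close enough to be the same library deposited 2 times, and the Y-linked genes Ddx3y, Kdm5d, Uty and Eif2s3y had counts in all 6.

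Counts were concentrated in few genes, and those of the mitochondria and of noncoding RNAs stood first. The mitochondrial ribosomal RNAs mt-Rnr2 and mt-Rnr1 were at 95627 ± 13054 and 20911 ± 8215 CPM (mean ± SD, n = 6). Gm42418, which was high in library 1 alone, was the next by its mean. Rn7sk, an RNA that controls transcription elongation, was at 13576 ± 514 CPM, and Rpph1 and Rmrp, the RNA parts of ribonucleases P and MRP, were at 6814 ± 1155 and 3889 ± 673 CPM. Malat1, a nuclear long noncoding RNA, was at 8294 ± 1661 CPM. Between these genes stood the epithelial genes Car1 (10336 ± 2619), Muc2 (8088 ± 3715), Dmbt1 (5917 ± 971), Fcgbp (4551 ± 1264) and Lypd8 (4331 ± 1422 CPM). The first 10 genes held 20.2% of the counts, the first 100 held 32.9%, and 593 genes held 50%. The median tested gene was at 17.7 CPM, with an interquartile range of 5.20 to 50.6, and 1908 genes reached a mean of 100 CPM.

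Genes encoded in the mitochondrial genome held 13.4% ± 1.98 of the counts, most of it in the ribosomal RNAs (11.7%) and 1.74% in the protein-coding genes. Within the latter the counts were uneven. The oxidase subunit mt-Co1 was at 13247 TMM-scaled CPM, but mt-Co2, mt-Co3 and mt-Atp6, which are subunits of the same oxidase and of the ATP synthase, were at 6.81, 13.4 and 2.63. Stretches of 50 bases that also occur in another annotated gene, mostly nuclear pseudogenes of mitochondrial origin, covered 100%, 99.9% and 99.5% of these 3 transcripts and 51.1% of mt-Co1, so the low values are uncertain. How reads with several matches were counted is not given in the sources used here. Genes of cytosolic ribosomal proteins held 2.08% ± 0.163 and immunoglobulin genes 0.157% ± 0.0544.

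**Figure D1:**
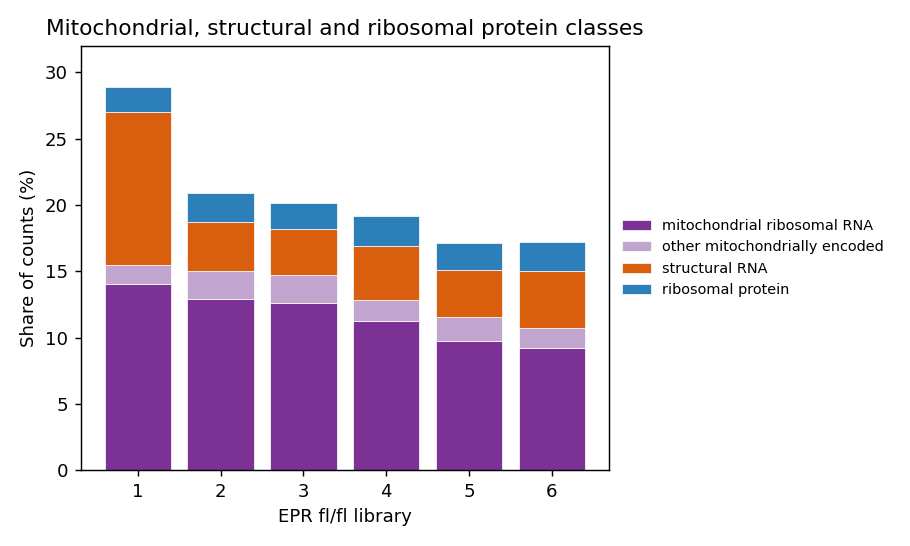
Share of all counts (y axis, percent) held by gene classes in each of the 6 EPR fl/fl libraries (x axis), as stacked bars with 1 colour per class and classes not shown left out. Structural RNA, with Gm42418 included, took 11.5% of library 1 and 3.48% to 4.35% of the other 5 libraries, while ribosomal protein genes stayed near 2.08%.

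Library 1 differed from the others in Gm42418, a gene known to collect reads of nuclear ribosomal RNA and counted here as structural RNA. The class took 11.5% of the counts of library 1 and 3.48% to 4.35% of the others, and without Gm42418 it took 3.91% against 3.32% to 4.06%, highest in library 6. Among its abundant members Gm26917 and Rpph1 were also highest in library 6. Rmrp (6032 CPM, next 3696), Rn7sk (15009 CPM, next 14059) and Lars2, which is counted in the class, were highest in library 1 with TMM. Gm42418, annotated on chromosome 17 at 39846958 to 39848788 (GRCm38), was at 87796, 3518, 2023, 4359, 1193 and 2859 CPM in libraries 1 to 6. Lars2, the mitochondrial leucyl-tRNA synthetase, was at 5251, 159, 156, 172, 70.1 and 94.6 CPM, and Gm15564, an antisense transcript, was at 66.2, 1.65, 1.81, 2.23, 1.43 and 1.63 CPM. The small RNA genes Mir6236 and Gm24270, which like Gm15564 are outside the class as defined by gene names, were also highest in library 1, with 3100 and 693 CPM. All 5 genes were at least 3.35 times higher in library 1 than in any other library. Gm42418 shares nearly all of its 50-base stretches with other annotated genes. The mitochondrial ribosomal RNA mt-Rnr1, outside the class, was also highest in library 1. It was at 42309, 21348, 18701, 18060, 13376 and 14945 CPM in libraries 1 to 6. Without library 1 the excess CV, a measure of variation that is defined below, fell from 210.5% to 6.59% for Gm15564, from 212.5% to 34.3% for Lars2, from 204.7% to 44.2% for Gm42418, from 109.9% to 30.6% for Gm24270 and from 107.7% to 47.2% for Mir6236.

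Measured per length, many of the leading genes outside these classes were those of the colon epithelium. Car1, carbonic anhydrase of the absorptive colonocyte (chromosome 3, 14766216 to 14808365), was first with 8302 CPM per kb. Lypd8, a secreted epithelial protein that binds flagella of bacteria, followed with 3373, and the goblet cell genes Muc2 and Zg16, a lectin of the mucus, with 2574 and 2319 CPM per kb. The gene model of Muc2 in the table has 3142 bases in 27 pieces with a gap of 45.5 kb between pieces, so its value per kb is uncertain. Further down the first 20 stood Lgals4, an epithelial galectin (1569), Cyp2c55, a cytochrome P450 (1564), Guca2a, which encodes guanylin (1413), Agr2, which helps mucins to fold (1029), the keratins Krt8 (1749) and Krt19 (970), and Dmbt1, a mucosal scavenger receptor protein (894). Genes that all cells use were also among the first 20, with Eef1a1 at 2076 and Actb at 1973 CPM per kb.

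By summed CPM per kb of lists of marker genes, absorptive colonocytes stood first, followed by goblet cells and by genes that all epithelial cells share. The 20 absorptive markers summed to 15843 ± 2699 CPM per kb (n = 6), which was 5.22% of the total per kb, and Car1 made up 52.4% of it. The 19 goblet markers summed to 11252 ± 1366, or 3.75%, and lay below the absorptive list in 5 of 6 libraries. The 18 markers of the epithelium in general summed to 8205 ± 1167 and lay below the goblet list in 6 of 6. Smooth muscle came next by summed level with 2570 ± 588, then genes of the secretory cells at the crypt base with 2040 ± 229. Of this crypt base sum Agr2 made up 50.43%, and Agr2 and Spink4 are also in the goblet list. The smooth muscle and crypt base lists changed places in 2 of 6 libraries. Adipocyte genes (1615 ± 713) and plasma cell genes (1131 ± 328) overlapped with each other in the same way. The mesothelium list, at 987, owed 98.3% of its sum to Krt19, which epithelial cells express as well, so this sum says little about mesothelial cells.

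Cell types of lower summed level were detected through many of their markers. Fibroblast markers summed to 750 ± 222 CPM per kb, macrophage and dendritic cell markers to 469.8 ± 196 (222 ± 83.2 without H2-Aa, an MHC class II gene), stem and progenitor markers to 285 ± 33.7, enteroendocrine markers to 282 ± 69.1 and tuft cell markers to 179 ± 35.2. Of the tuft cell sum Cd24a made up 86.35%, and the median tuft cell marker was at 2.345 CPM per kb. Lists of T and NK cells (83.8 ± 48.98), enteric neurons (77.5 ± 24.7), blood endothelium (26.1 ± 3.03) and enteric glia (14.1 ± 2.22) had sums that were lower still. Because lists differ in their number of genes and in the level of each gene, this order is an order of RNA in lists and not of cell numbers.

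**Figure D2:**
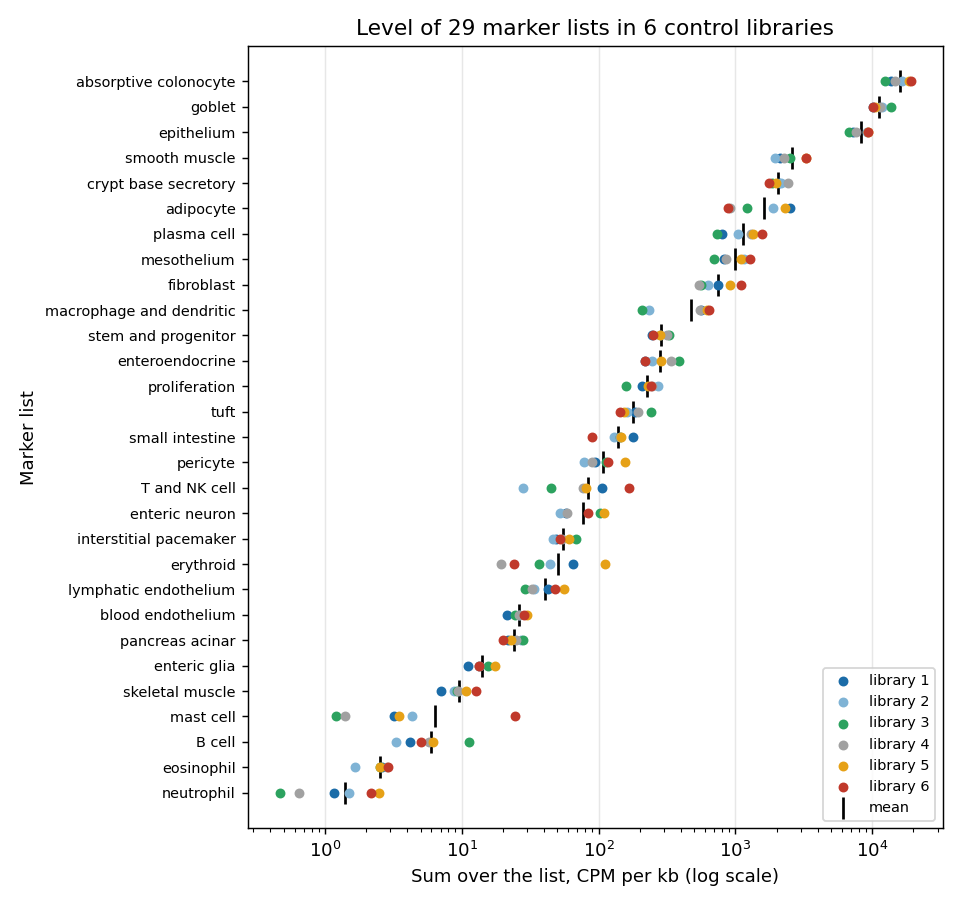
Summed level of each cell type list (x axis, CPM per kb on a log scale) in each of the 6 EPR fl/fl libraries, as coloured points with a bar at the mean, and lists in order of that mean. Absorptive colonocyte, goblet and epithelium lists are at the top with means of 15843, 11252 and 8205, and neutrophil genes are at the bottom with 1.40.

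Lists of cells that the tissue piece need not hold were low. Of the 11 neutrophil genes 7 had at most 3 counts in every library and Mpo, the neutrophil peroxidase, had none. The pancreas list summed to 25.5 to 37.6 CPM per library, most of it from Cela1 (26.98 CPM) and Clps (4.95 CPM), and 1 of its 13 genes, the amylase Amy2a5, had at most 3 counts in every library. The skeletal muscle list summed to 15.1 to 26.2 CPM, most of it from Ckm (12.4 CPM) and Acta1 (5.32 CPM), and 3 of its 10 genes had at most 3 counts in every library. Some pancreatic enzymes were seen mainly in library 2, with 42 counts of Pnlip and 31 of Ctrb1, against at most 4 in any other library. Among genes more typical of the small intestine, the bile acid transporter Slc10a2 was at 319 and Apob at 368 CPM, whereas Lct, Apoa1, Apoa4 and Defa24 did not pass the filter. Among the Hox genes, whose order along a chromosome follows position along the gut, Hoxb6 was at 47.2, Hoxb9 at 39.9, Hoxa10 at 10.5 and Hoxa13 at 3.29 CPM. Hoxb13, which marks the distal end of the colon, had at most 5 counts in any library, and Hoxc12, Hoxc13 and Hoxd12 had no count.

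Variation between mice was measured as the excess CV, the spread of the TMM-scaled CPM over the 6 libraries that remains after counting noise is subtracted, in percent of the mean. It includes the mouse, the dissection, RNA extraction and library preparation, which cannot be told apart here with 1 library per mouse. The median tested gene had an excess CV of 12.7% (interquartile range 7.84% to 21.1%). A gene was said to vary when its excess CV was 30% or more, which held for 1856 of 15322 tested genes (12.1%), and 52 genes exceeded 100%. Among the 9594 genes with a mean of at least 10 CPM, 532 varied (5.55%). Of the 5705 tested genes with a mean of 1 to 10 CPM 23.07% varied. With TMM, libraries 1 to 6 were highest in 18.33%, 16.13%, 21.35%, 11.41%, 14.45% and 18.33% of all tested genes. They were lowest in 19.02%, 22.68%, 20.69%, 16.49%, 7.651% and 13.47% of the varying genes. Counts for lists below are to be read beside these shares. Those for the lowest library cover varying genes only and not all tested genes. These are descriptions of 6 mice and no test was applied to them. Without library 6 the number of varying genes was 1569, of which 1310 were among the 1856.

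The 10 steadiest genes with a mean of at least 100 CPM had an excess CV of at most 2.23%. Sar1a, a GTPase of vesicle budding from the endoplasmic reticulum, had no variation beyond counting noise, with 102, 100.2, 103, 98.3, 102 and 101 CPM in libraries 1 to 6. Next came Becn1 of autophagy (0.922%), Sptan1, a spectrin (0.945%), Copb2, a coat protein of Golgi vesicles (1.14%), Mfsd14b, a transporter-like membrane protein (1.25%), the nuclear import receptor Tnpo1 (1.46%) and the splicing factor Snrnp200 (1.55%). Usp47, a ubiquitin protease (2.07%), the zinc finger gene Zfp207 (2.16%) and Mtch2, a protein of the outer mitochondrial membrane (2.23%), completed the 10. Becn1 shares 36.8% of its 50-base stretches with other annotated genes, Cntd1 first among them, so its value is less certain. Hnf4a, a transcription factor of intestinal epithelium that was chosen after its values were seen, had an excess CV of 11.1%.

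**Figure D3:**
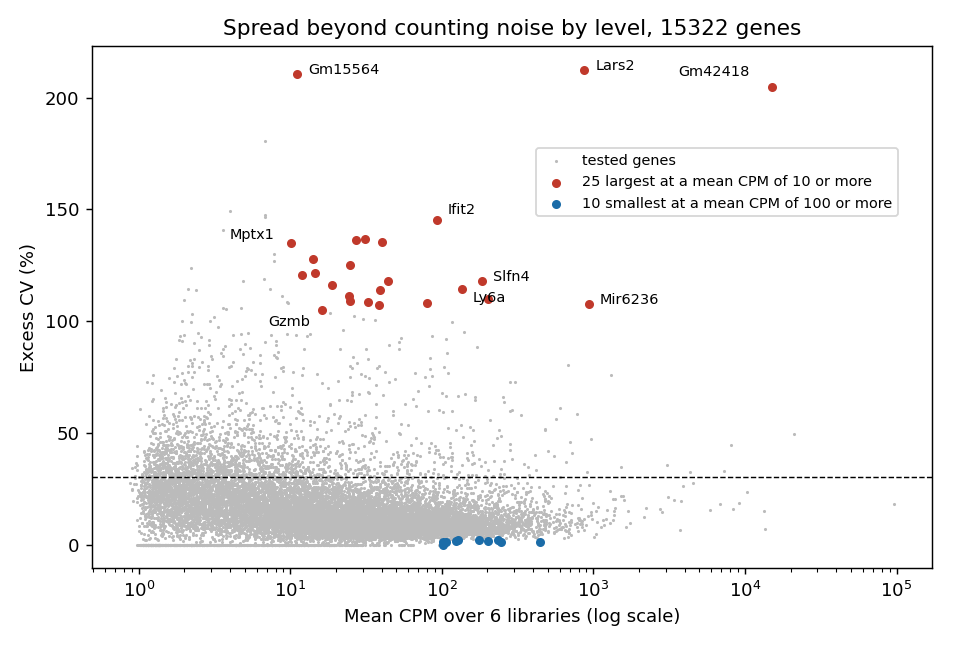
Excess CV (y axis, percent) against mean CPM (x axis, log scale) for the 15322 tested genes, with the limit of 30% as a dashed line, the 25 most varying genes of at least 10 CPM in red and the 10 steadiest of at least 100 CPM in blue. The median is 12.7% and 1856 genes lie at or above the limit.

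Many of the genes that varied most are known to be induced by interferon, and library 6 held the highest value for most of them. Of the 25 genes with the largest excess CV at a mean of at least 10 CPM, library 6 was highest in 17 and library 1 in 6, and of the first 100 library 6 was highest in 69. Without library 6 the median excess CV of those 17 genes fell from 117.8% to 64.9%, and 15 of them still varied. The other 2, Slfn4 and Oas2, fell to 10.1% and 27.2%. In all, 105 of 15322 tested genes (0.685%) were at least 2 times higher in library 6 than in every other library, against 4 to 26 genes for each of the other 5 libraries. That count was chosen after the values were seen. Among the 105 were 14 of the 23 genes in the interferon list.

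Interferons are secreted by infected or alarmed cells and act through receptors and transcription factors on genes whose promoters hold the interferon-stimulated response element. To show that element, sequence upstream of 3 of these genes is given below as RefSeq has it (GRCm38.p6), 5′ to 3′ on the strand of the gene, with matches to its core GAAANNGAA on either strand in capitals. The lines cover the 160 bases before the start of Isg15 (chr4:156200819-156200978, minus strand), Ifit1 (chr19:34640729-34640888, plus strand) and Ifit3 (chr19:34583369-34583528, plus strand).
Isg15: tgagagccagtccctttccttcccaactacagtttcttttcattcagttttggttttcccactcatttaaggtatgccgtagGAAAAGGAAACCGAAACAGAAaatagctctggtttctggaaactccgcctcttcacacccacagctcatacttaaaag
Ifit1: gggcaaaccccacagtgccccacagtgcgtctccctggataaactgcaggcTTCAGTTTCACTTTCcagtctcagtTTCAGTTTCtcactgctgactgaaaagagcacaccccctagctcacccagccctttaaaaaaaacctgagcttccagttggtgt
Ifit3: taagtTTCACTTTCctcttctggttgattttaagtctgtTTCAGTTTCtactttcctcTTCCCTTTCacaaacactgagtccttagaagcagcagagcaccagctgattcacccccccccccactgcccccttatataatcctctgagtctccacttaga
Isg15 held 3 overlapping matches between 78 and 58 bases before its start, and Ifit1 held 3 matches between 109 and 76 bases before its start, of which a pair overlapped. Of the 23 genes in the interferon list 15 had a promoter in the RefSeq table, and 11 of those held the core in the 250 bases before the start, compared with 7.60% of the 10890 tested genes and 8.18% of all 27025 genes with a promoter. A match is a description of the letters and not evidence of binding.

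Isg15, a ubiquitin-like protein that is coupled to other proteins during a virus response, was at 41.1, 12.2, 9.57, 16.4, 13.8 and 149 CPM in libraries 1 to 6. Ifit2, which belongs to a family that binds foreign RNA, was at 90.1, 14.4, 20.3, 38.3, 32.1 and 364 CPM. In both, library 6 lay above all others, library 1 was next, and libraries 2 and 3 were at the low end. Usp18, the protease that removes Isg15, was at 24.9, 7.91, 6.71, 13.01, 9.56 and 86.8 CPM and Oasl2, of the family of oligoadenylate synthetases, at 179, 61.3, 63.1, 72.5, 72.5 and 399.6 CPM. Irf7, a transcription factor that drives interferon genes, had a narrower range with 255, 130, 229.9, 228, 260.4 and 629.9 CPM. Cxcl10, a chemokine that attracts T cells, was low throughout, with 5.52, 1.69, 0.572, 2.37, 3.64 and 27 CPM.

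All 23 tested genes of the list varied, with a median excess CV of 89.1% against 12.7% over all tested genes. Library 6 was highest in 23 of 23 with TMM, with totals alone and with DESeq2 size factors, by 1.17 to 4.89 times over the next library and 2.23 times in the median gene. Library 1 was the next highest in 20 of 23 with TMM and in 19 with totals alone, and libraries 2 and 3 were the 2 lowest in 20. The mean log2 level of the list ranged 8.03-fold over the 6 libraries. Without library 6 the range was 3.32-fold and 21 of 23 genes still varied. Stretches of 50 bases that occur in another annotated gene covered 70.65% of Gbp6, 51.2% of Ifit3, 57.6% of Oas1a and 52.3% of Apol9b. The values of these genes include reads that could belong to a near copy.

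Transcripts of the interferons Ifnl2, Ifnl3, Ifng and Ifnb1, which were looked up after these values were seen, were scarce. Other interferon genes were not looked up. Ifnl2 had 29 counts in library 6 and none in the others, and Ifnl3 was at 0.0736, 0, 0, 0.0329, 0.0714 and 1.25 CPM. The 2 genes are near copies of each other and share 31.7% and 38.8% of their stretches. Ifng, the interferon of T and NK cells, was at 0.368, 0.0331, 0.127, 0.296, 0.0714 and 0.871 CPM, and Ifnb1 was at most 0.0544 CPM in any library. Slfn4, of the schlafen family, was at 109.7, 87.2, 102, 93.6, 86.6 and 627 CPM, with 5 libraries close together and library 6 alone above them.

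Other members of the 25 most varying genes shared the order of the interferon list in part. Ly6a, a surface antigen of several cell types, was at 134, 44.4, 50.7, 52.8, 87.9 and 444 CPM and Slfn2 at 32.4, 5.46, 9.83, 11.5, 12.8 and 118 CPM. Iigp1, an immunity-related GTPase, is itself in the interferon list. It was at 138, 12.1, 9.38, 42.1, 51.95 and 232 CPM, with library 1 closer to library 6 than in Ifit2. Trim30a was at 149.9, Slfn5 at 129, Ifi44 at 102 and Gm4951 at 40.2 CPM in library 6, and library 1 was next highest in all 4. Pla2g4c, a phospholipase, was at 38.6, 3.21, 10.8, 2.92, 4.78 and 56.3 CPM, and libraries 1 and 6 stood above the other 4. Gzmb, a granule protease of cytotoxic lymphocytes, was at 20.97, 2.08, 4.58, 11.1, 10.6 and 48.8 CPM, highest in library 6 and lowest in library 2.

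Genes of MHC class II, which present peptides to CD4+ T cells, varied in a second pattern in which libraries 2 and 3 stood below the other 4. H2-Aa, an alpha chain, was at 464, 68.6, 82.6, 389.7, 384 and 303 CPM in libraries 1 to 6 and H2-Eb1, a beta chain, at 226, 52.3, 49.7, 204, 193 and 206 CPM. Cd74, the invariant chain, was at 889.9, 125, 209, 773, 738 and 693 CPM, and Ciita, the factor that switches class II genes on, at 51.2, 10.3, 15.1, 45.1, 41.5 and 45.7 CPM. All 7 tested genes varied (median excess CV 55.5%), beside 12.1% of all tested genes. In each of the 7 genes libraries 2 and 3 were the lowest under all 3 scalings. The lowest of the other 4 libraries exceeded the higher of these by 2.21 to 5.61 times. Library 1 was highest in 7 of 7 genes with TMM and DESeq2 size factors but in 2 of 7 with totals alone. Macrophages and dendritic cells carry class II. Their other 15 markers summed to 207, 173, 132, 190.5, 258 and 369 CPM per kb in libraries 1 to 6, and none of the 15 was at 0 in every library. The macrophage gene Adgre1 was at 16.2, 14.4, 10.4, 15.2, 20.6 and 32.01 CPM. Libraries 2 and 3 were at the low end of both, and the part of these cells in the class II result was not tested.

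Class II promoters are known for a Y box, an inverted CCAAT letter group that binds the factor NF-Y. The 100 bases before the RefSeq start of H2-Aa (chr17:34287824-34287923, minus strand) and H2-Eb1 (chr17:34305767-34305866, plus strand) are given with the letters CTGATTGG in capitals.
H2-Aa: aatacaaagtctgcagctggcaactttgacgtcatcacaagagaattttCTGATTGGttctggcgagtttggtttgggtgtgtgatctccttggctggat
H2-Eb1: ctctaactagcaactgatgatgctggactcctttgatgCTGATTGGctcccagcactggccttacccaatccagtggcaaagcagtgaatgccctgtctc
Of the 7 genes 4 had a promoter in the table, and 2 of these held the letters, against 6.02% of tested genes and 4.43% of all genes. None of the 4 held the interferon core in 250 bases. Genes of MHC class I were chosen after their values were seen. H2-K1 was at 1286, 544, 349, 974, 1088 and 1566 CPM, B2m at 974, 324, 451, 612, 687 and 1187 and the peptide transporter Tap1 at 102, 28.2, 28.8, 62.6, 66.1 and 216, each highest in library 6 and lowest in library 2 or 3.

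**Figure D4:**
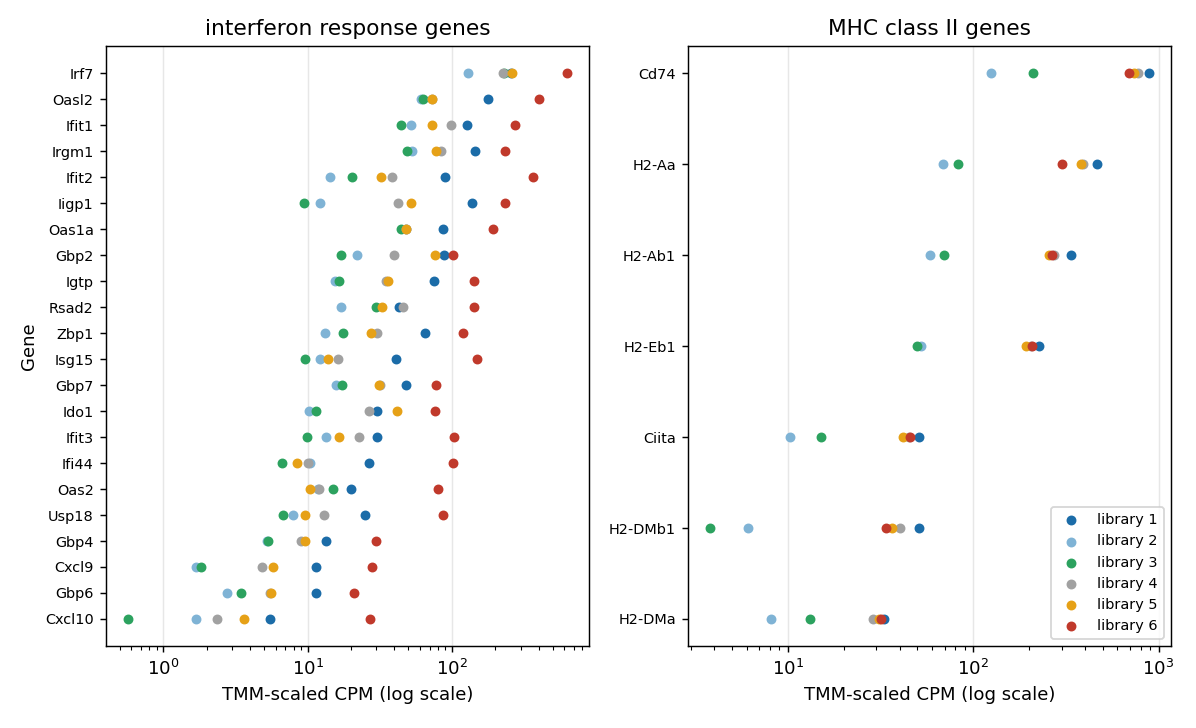
TMM-scaled CPM (x axis, log scale) of genes of the interferon response (left) and of MHC class II (right), with 1 row per gene and 1 coloured point for each of the 6 EPR fl/fl libraries. Interferon genes peak in library 6, Isg15 at 149.4 against 41.1 in library 1, while class II genes dip in libraries 2 and 3, H2-Aa to 68.6 and 82.6.

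Genes of lymphocytes and macrophages varied as lists too. Of 16 T and NK cell genes 14 varied, beside 12.1% of all tested genes and 23.07% of those with a mean of 1 to 10 CPM. Library 6 was highest in 13 of the 16 and library 2 lowest in 13, whereas over all varying genes library 6 was highest in 29.3% and library 2 lowest in 22.7%. Cd8a, which marks cytotoxic T cells, was at 18.03, 2.98, 8.14, 13.8, 8.71 and 15.4 CPM and the granule protease Gzma at 43.4, 4.83, 8.01, 18.1, 21.8 and 55.9 CPM, and in both library 2 was lowest. Without library 2 the number that varied was 9. Of 16 macrophage and dendritic cell genes 12 varied, with library 6 highest in 12. The complement gene C1qa was at 32.4, 24.6, 15.3, 23.4, 32.9 and 59.5 CPM. Without library 6 only 4 of these genes varied.

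B cell and mast cell genes were low, and each list was highest in a single library. Ms4a1, the B cell antigen CD20, had 9, 7, 99, 31, 7 and 12 counts in libraries 1 to 6, and Cr2, a complement receptor of follicular B cells, had 2, 4, 87, 18, 5 and 1. The 12 B cell genes summed to 30.9 CPM in library 3 and to 8.14 to 15.6 in the others. Mcpt1, a protease of mucosal mast cells, had 12, 70, 4, 17, 17 and 294 counts and Mcpt2 had 8, 13, 1, 2, 3 and 133, with library 6 highest. Of the 12 plasma cell genes 7 varied, beside 12.1% of all tested genes. Igha, the heavy chain of immunoglobulin A, was at 353, 512, 266, 651, 601 and 856 CPM, lowest in library 3. Igkv17-121, a single variable gene of the kappa light chain and 1 of the 25 most varying genes, was at 16.04, 0.761, 2.48, 47.8, 15.4 and 1.58 CPM, highest in library 4.

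Antimicrobial genes, many of which the epithelium makes, varied in most cases. Of 17 tested antimicrobial genes 13 varied (12.1% of all tested genes did), beside 1 of 18 general epithelial genes, 4 of 19 goblet genes and 7 of 20 absorptive genes. Reg3b and Reg3g, antibacterial lectins, were at 361, 66.8, 82.8, 196, 426 and 422 and 131, 36.3, 26.6, 59.98, 184 and 166 CPM. In both, libraries 2 and 3 were lowest and library 4 stood between these and the others. Retnlb, a goblet cell protein, was at 329.5, 58.8, 116, 52.2, 82.4 and 406 CPM and Ang4, a ribonuclease of the crypt base, at 257, 11.9, 161, 40.8, 40.7 and 163 CPM, with library 2 among the lowest in each. Mptx1, a pentraxin, ran differently, with 21.2, 3.74, 34.5, 1.38, 0.785 and 1.14 CPM and the highest value in library 3. Duoxa2, which matures an epithelial hydrogen peroxide producing enzyme, was at 28.3, 8.93, 20.3, 24.96, 37.5 and 55.97 CPM.

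Of the 19 goblet genes 4 varied, Muc2, Clca1, Ern2 and Retnlb, and the share was above the 12.1% of all tested genes. The steadiest of the list was Tff3, a trefoil peptide of mucus, which had an excess CV of 3.93% with 352, 362, 346, 386, 366 and 351 CPM in libraries 1 to 6. Muc2 varied more, with 7836, 7417, 14643, 8644, 4063 and 5915 CPM, and was highest in library 3 and lowest in library 5. Clca1, a protein that processes mucus, varied with 4441, 1955, 4316, 2149, 2404 and 3230 CPM, and Ern2, a stress sensor of goblet cells, with 58.4, 75.2, 116, 92.8, 60.7 and 53.8 CPM, highest in library 3 like Muc2.

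Scores of 4 pairs of lists were compared across the 6 libraries by exact two-sided permutation tests. The score of the goblet list without Muc2 and the level of Muc2 had a Pearson r of 0.90 (exact permutation p = 0.0208, adjusted p = 0.0833 over 4 pairs) and a Spearman rho of 0.89 (exact permutation p = 0.0333). Without the 2 libraries farthest from the median r was 0.37, so the relation rested on those libraries, while without any single library it was 0.72 to 0.95. Goblet and absorptive scores had an r of -0.44 (exact permutation p = 0.383, adjusted p = 0.767) and a rho of -0.37 (exact permutation p = 0.497) with TMM. With totals alone r was -0.92 (exact permutation, adjusted p = 0.025). With TMM and 1 library left out r ranged from -0.92 without library 1 to 0.20 without library 3, so its sign changed. CPM shares sum to a constant, so the scores of lists are not free of each other. Smooth muscle and epithelium had an r of 0.27 (exact permutation p = 0.590, adjusted p = 0.787) and a rho of 0.37 (exact permutation p = 0.497). Smooth muscle and adipocytes had an r of 0.08 (exact permutation p = 0.861) and a rho of 0.14 (exact permutation p = 0.803). Without the 2 farthest libraries these 3 values of r were 0.44, 0.73 and 0.82.

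Of the 20 absorptive genes 7 varied, beside 12.1% of all tested genes. Fabp2, which binds fatty acids, was at 418, 829, 256, 431, 678 and 396 CPM, and Slc9a3, the sodium-hydrogen exchanger of the brush border, at 474, 155, 355, 171, 246 and 305 CPM. The lowest library of Slc9a3 was library 2, the highest of Fabp2. Clca4a, of the ion transport list, was at 424, 783, 164, 383, 765 and 348 CPM, and 6 of the 22 tested genes in that list varied. Reg4, a marker of deep crypt secretory cells, was at 175, 316, 15.8, 206, 207 and 65.3 CPM, with library 3 lowest by a wide margin. None of the 12 stem and progenitor genes varied. Among general epithelial genes the exception was the tight junction gene Cldn4, with 53.4, 145, 62.5, 60.2, 90.6 and 76.9 CPM and the highest value in library 2.

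Enzymes that act on drugs and steroids varied in 6 of 21 genes, beside 12.1% of all tested genes. Ces1g, a carboxylesterase, was at 62.5, 138, 146, 178, 95.3 and 73.6 CPM and Cyp4b1, a cytochrome P450, at 16.4, 38.4, 56.3, 46.9, 37.5 and 14.5 CPM, and in both libraries 1 and 6 were lowest. The abundant Cyp2c55 was not among them, with 3704, 1885, 3335, 3281, 3595 and 2909 CPM and an excess CV of 21.3%. Sis, the sucrase of the small intestine, was at 49.4, 15.02, 64.8, 40.4, 13.1 and 5.44 CPM and Fabp6, an ileal bile acid carrier, at 17.4, 2.85, 2.35, 6.01, 4.07 and 6.70 CPM, and these 2 had their highest values in different libraries, 3 and 1.

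In genes of cell division and sterol synthesis, and with TMM in those of respiration, library 3 was the lowest in nearly all, while 1 of them reached the limit for varying. None of 15 proliferation genes varied and library 3 was lowest in 15 of 15 under all 3 scalings, with Mki67 at 267, 309, 178, 255, 203 and 223 CPM. Over all varying genes library 3 was lowest in 20.69% with TMM. That share is not a matched background here, because nearly all genes of these lists did not vary. The share of all tested genes in which library 3 was lowest was not computed. None of 23 nuclear genes of oxidative phosphorylation varied. Library 3 was lowest in 22 of them with TMM and in 15 with totals alone. Of 19 cholesterol synthesis genes 1 varied and library 3 was lowest in 18, and Hmgcs1, an early enzyme of the pathway, was at 355, 342, 168, 251, 322 and 362 CPM. The nuclear long noncoding RNA Neat1, which was chosen after its values were seen, ran the other way with 361, 802, 1162, 848, 615 and 466 CPM. Enteroendocrine genes also favoured library 3, which was highest in 10 of 12, beside 21.35% of all tested genes. Chga, a granule protein of enteroendocrine cells, was at 86.2, 79.6, 153, 144, 88.6 and 52.6 CPM.

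Genes of fat varied between the tissue pieces. Of 16 adipocyte genes 14 varied (median excess CV 44.0%), beside 12.1% of all tested genes. Library 1 was highest in 14 of 16 with TMM and in 8 of 16 with totals alone, and with TMM in 18.33% of all tested genes. Adipoq, the hormone adiponectin, was at 182, 130.1, 91.8, 58.7, 161 and 60.9 CPM and Fabp4, a fatty acid carrier of adipocytes, at 549, 292, 143, 116, 345 and 113 CPM. The enzymes of fatty acid synthesis Scd1 and Fasn were at 2764, 2399, 821, 296, 1259 and 517 and 1630, 1082, 558, 417, 672 and 466 CPM, and Thrsp, a regulator of that pathway and 1 of the 25 most varying genes, at 124, 56.1, 17.9, 12.6, 23.1 and 11.4 CPM. Libraries 4 and 6 were at the low end of Adipoq and Fabp4. Ucp1, the uncoupling protein of brown fat, had no count.

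Genes of the mesothelium, the outer coat of the colon, also varied. Of 8 mesothelial genes 7 varied, beside 12.1% of all tested genes and 23.07% of those with a mean of 1 to 10 CPM. Library 5 was highest in 7, beside 14.45% of all tested genes, and library 3 lowest in 8, beside 20.69% of varying genes. The mean log2 level of the list ranged 8.53-fold. Upk3b, a mesothelial membrane protein, was at 10.1, 14.1, 1.65, 5.35, 35.4 and 9.69 CPM and Msln, mesothelin, at 6.77, 9.86, 1.24, 2.83, 19.9 and 6.70 CPM. Without library 5 the range was 4.82-fold and without library 3 it was 4.26-fold. Haemoglobin genes, which mark blood left in the tissue, varied in 4 of 4, beside 12.1% of all tested genes, and share sequence with their copies. Hbb-bs was at 33.9, 17.8, 15.2, 7.69, 41.7 and 10.2 CPM. None of 20 smooth muscle genes varied with TMM and 2 did with totals alone, and Myh11, smooth muscle myosin, was at 1388, 969, 1184, 1218, 1546 and 1736 CPM. Of 16 fibroblast genes 7 varied, beside 12.1% of all tested genes, among them Dcn, decorin, with 310.3, 234, 188, 164, 354 and 213 CPM. Of 15 collagen genes 2 varied, a share near the 12.1% of all tested genes, with Col1a1 at 184, 146, 104, 113, 161 and 267 CPM. Of 15 enteric neuron genes 7 varied with TMM and 10 with totals alone. With TMM 12.1% of all tested genes varied, and 23.07% of those with a mean of 1 to 10 CPM. Uchl1, a protein of neurons, was at 12.4, 8.34, 19.2, 9, 19.2 and 15.2 CPM, with libraries 3 and 5 highest.

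Genes that respond to time of day and handling varied in part. Of 18 clock genes 6 varied, beside 12.1% of all tested genes. Dbp, a clock output factor, was at 50.9, 20.9, 30.8, 32.3, 22.9 and 25.9 CPM and highest in library 1, and Arntl, which runs in antiphase to it, was at 17.3, 36.02, 25.6, 24.5, 32.3 and 32.5 CPM and lowest in library 1. Of 20 immediate early genes 7 varied, with Fos at 66.2, 113, 50.5, 86.4, 80.1 and 125 and Egr1 at 5.52, 29.5, 11.3, 13.99, 17.6 and 23.2 CPM. Of 12 heat shock genes 7 varied with TMM and 5 with totals alone, and Hspa1b, an inducible chaperone, was at 40.6, 9.63, 17.5, 12.7, 14.3 and 61.1 CPM with libraries 1 and 6 highest. None of 20 genes of protein folding in the endoplasmic reticulum varied. The time at which each mouse was killed is not given in the sources used here.

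**Figure D5:**
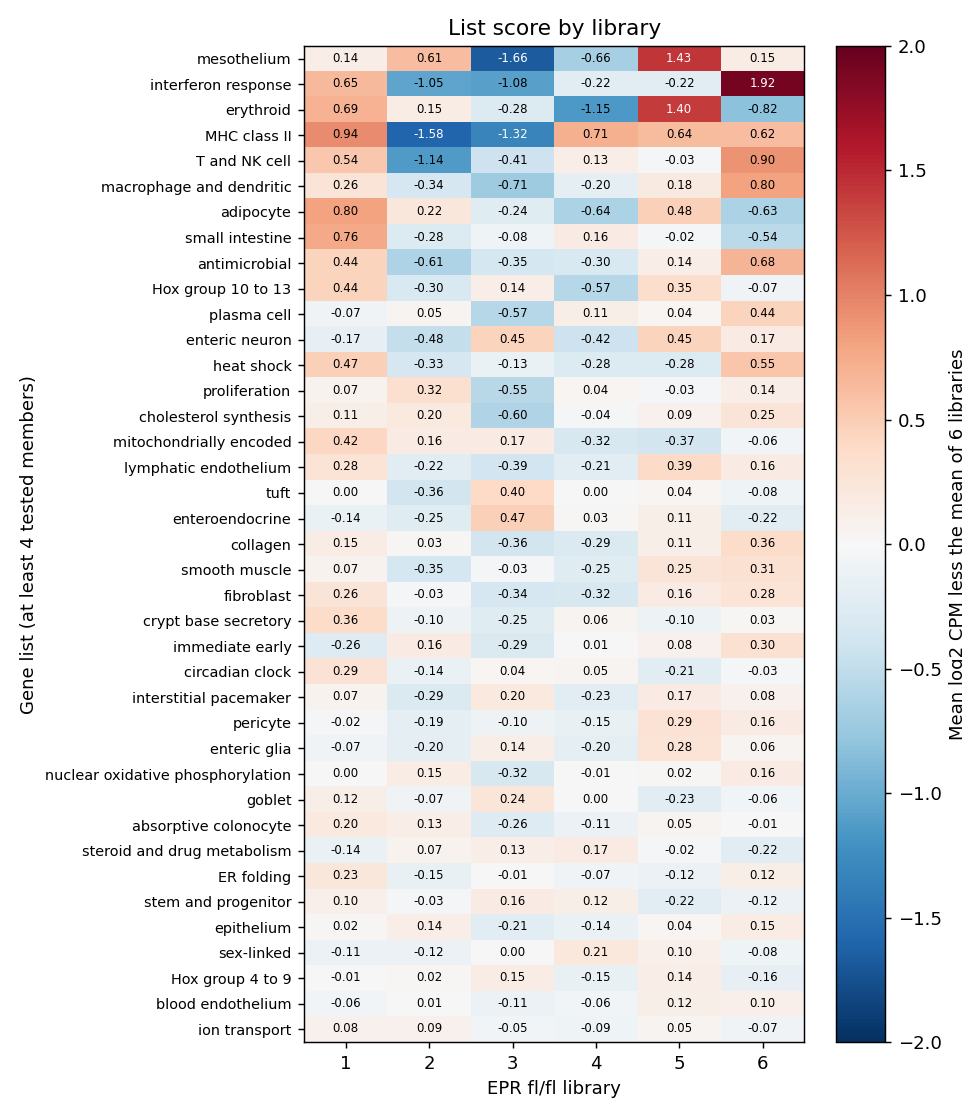
Mean log2 CPM of each list, as a colour and a printed value, in each of the 6 EPR fl/fl libraries (columns), centred on the mean over libraries, for the 39 lists (rows) with at least 4 tested genes. The interferon list runs from -1.08 in library 3 to 1.92 in library 6 and the mesothelium list has its lowest value in library 3.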

How the data were processed

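RNA of the whole proximal colon was measured in 6 EPR fl/fl mice, 1 library each, out of 12 libraries in the series. Per the study's methods, libraries were made with a stranded total RNA kit with depletion of ribosomal RNA and sequenced on a NovaSeq instrument. Reads were trimmed, aligned to the mouse genome with STAR 2.5.3a and counted per gene with featureCounts in R 3.5.1 against the Ensembl annotation of GRCm38 (mm10). The strand setting and the treatment of reads with several matches are not given in the sources used here, so genes that overlap or share sequence are uncertain. The authors deposited raw counts per gene, with the position and length of each gene model, and no normalized values were used. No column lacked a sample (0 columns).

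Groups came from the sample labels. From the deposited counts, CPM and CPM per kb of the length column were computed, and CPM was scaled with TMM factors (edgeR 4.0.16 in R 4.3.3). Genes with at least 1 CPM in at least 4 of 6 libraries were kept as tested. The excess CV of a gene is the square root of the variance of its TMM-scaled CPM less the variance that counting alone gives, divided by the mean, and 30% was the limit for varying. List scores are the mean over tested genes of log2 CPM with a prior count of 2. The 4 correlations of list scores were tested with the exact permutation test over 720 pairings, two-sided, with Benjamini-Hochberg adjustment, and all else is description without a test. The excess CV was tested on simulated data with known variation. Alternatives were other scalings (totals, DESeq2 1.42.0 size factors), other dispersion estimates, other filters, length, and leaving out each library. Depth was 13093904 to 30727736 counts per library, and the limit of 3 counts covers counting error only.

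Genes were named by rule: the 20 with the highest mean CPM, the 20 with the highest CPM per kb outside structural and mitochondrial genes with a length of at least 200 bases, the 25 with the largest excess CV and a mean CPM of at least 10, the 10 with the smallest and a mean CPM of at least 100, and any list member. The libraries, lists and limits were chosen with earlier results of these data known. Promoters came from a RefSeq table (GRCm38.p6), and sequence shared between genes was found by comparing stretches of 50 bases over GENCODE transcripts for 228 named genes, of which 38 shared over 20%. The other libraries of the series were not analysed here, and 1 gene of the lists is counted but not reported here. Python 3.11.15, pandas 2.3.3 and scipy 1.17.1 were used.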

Additional observations from a re-analysis of the deposited data

Results flagged for a closer look

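A value is given here when the highest or lowest of the 6 libraries stood apart from the rest by Dixon's test at 95%. Of 58 sets of values examined 23 passed, and chance passes about 1 in 20, but 19 of the 23 are among the 25 genes chosen for the largest excess CV, so the count cannot be read against chance. Over all tested genes 1070 passed (6.98%). None of these values was explained here.

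Structural RNA took 11.5% of the counts in library 1, with 4.35% the next highest, and without Gm42418 the class took 3.91% of library 1 and up to 4.06% of the others. Lars2 (5251 CPM), Gm15564 (66.2), Gm42418 (87796), Gm24270 (692.9) and Mir6236 (3100) were also apart in library 1, all on the TMM scale.

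In library 6 the genes that stood apart were Ifit2 (364.4), Slfn2 (117.7), Ifi44 (102.1), Isg15 (149.4), Usp18 (86.8), Gm4951 (40.2), Trim30a (149.9), Slfn4 (627.4), Ly6a (444.4), Slfn5 (128.9), Apol9b (78.6), Oas2 (79.5) and Ifit3 (104.2), as TMM-scaled CPM. The mast cell list summed to 24.4 CPM per kb in library 6, and the next library had 4.31.

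The B cell list summed to 11.3 CPM per kb in library 3, with 6.22 the next. The eosinophil list was low in library 2, at 1.67 CPM per kb, and the next lowest library had 2.54. Igkv17-121 was at 47.8 TMM-scaled CPM in library 4, with 16.04 in the next library.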

How the results depend on the processing

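No paired analysis was possible because a single group was analysed, so no groups share replicate numbers. Of 226 main values under the alternatives 204 kept their direction and side of the threshold, or stayed within 1.5 times (counts) or 1 SD (levels). Of 269 excess CVs of single genes 266 kept their side of 30%, but 36 moved by over 1.5 times, 5 without library 1, 12 without library 6 and 19 with edgeR dispersions, all of them downward. Those that fell below 30% were Gm15564 without library 1 (excess CV 6.59%) and Slfn4 and Oas2 without library 6 (10.1% and 27.2%).

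With any count as the filter 33611 genes were detected and 10362 of them had an excess CV of at least 30%, and with a mean CPM of at least 10 the latter number was 532. It was 1569 to 1765 when 1 library was left out, 2125 with totals, 1865 with DESeq2 size factors and 1478 with edgeR dispersions, of which 1444 were among the 1856. Without structural and mitochondrial genes 1070 genes held 50% of the counts, and the goblet and absorptive lists summed to 13831 and 19403 CPM per kb. With counts divided by length structural RNA held 14.5%, ribosomal protein genes 3.26% and immunoglobulin genes 0.389%. With structural RNA defined by gene type, a choice made after seeing the data, its share was 17.9%. Without division by length the log2 level relative to epithelium was 0.65 for absorptive genes (0.94 per length), -0.87 for smooth muscle (-1.69) and -2.70 for fibroblasts (-3.49).

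Leaving out 1 library gave 9 to 14 varying genes in the T and NK cell list, 4 to 13 in the macrophage and dendritic list, 21 to 23 in the interferon list and 6 to 7 in the MHC class II list. For the correlations, r without 1 library ranged from -0.032 to 0.83 for smooth muscle and epithelium, from -0.21 to 0.54 for smooth muscle and adipocytes, from -0.92 to 0.20 for goblet and absorptive genes, and from 0.72 to 0.95 for Muc2 and the other goblet genes. With totals alone r was -0.061 for smooth muscle and adipocytes, -0.92 (exact permutation, adjusted p = 0.025) for goblet and absorptive genes and 0.91 (exact permutation, adjusted p = 0.025) for Muc2 and the other goblet genes. The causes of these changes were not tested.

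Depth limits genes near 1 CPM. The median excess CV was 19.5% for means of 1 to 10 CPM against 10.1% at 100 CPM or more, and the reason was not tested. With 6 mice the excess CV of a single gene is itself imprecise, and genes that share sequence with copies can gain or lose counts by the handling of multiple matches.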

Other observations

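Values of Me1, Nlrc5 and Meg3, which are outside the lists and were chosen after they were seen, follow as description. Me1, malic enzyme of fatty acid synthesis, was at 275, 122, 64.8, 49.2, 75.8 and 61.7 TMM-scaled CPM in libraries 1 to 6, highest in library 1 like Thrsp. Nlrc5, the factor that switches on MHC class I genes, was at 41.4, 12.2, 18.1, 31.7, 31.9 and 86.2 CPM, highest in library 6 and lowest in library 2. Meg3, an imprinted long noncoding RNA, was at 15.4, 11.8, 16.8, 10.3, 18.8 and 11.1 CPM. From the list of mitochondrially encoded genes, mt-Nd6, the only protein-coding gene on the light strand, was at 222, 78.3, 80.3, 60.7, 33.7 and 48.3 CPM, highest in library 1.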
